A study of Mus musculus with 21 samples.

Results

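Tumours grown from prostate cancer cells that lack IRE1α were compared with the same cells in culture. All libraries labelled as IRE1α knockout (KO) were taken, 15 of the 21 libraries of the study: 9 from tumours and 6 from cultured cells. They come from 3 KO lines, KO1, KO2 and KO3, each with 2 cell libraries and 3 tumour libraries, and the line was kept as a block in the test. Of the 45706 genes in the deposited table, 14250 were abundant enough to be tested. The account turns on the 9288 of them that reached 5 CPM (counts scaled to a common library total) in all 6 KO cell libraries, called culture-expressed below, because a rise or fall in these starts from RNA that the cancer cells themselves made in culture. Just inside that limit lay Mcam, whose lowest KO cell library held 5.008 CPM, and just outside it lay Gch1, whose lowest held 4.992 CPM.

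The cells are Myc-CaP, a mouse prostate cancer line, grown in DMEM with fetal bovine serum. The study asks, by its title, how targeting IRE1α acts on the tumour microenvironment and on immunity against prostate cancer. KO lines were made with CRISPR-Cas9 and the guide RNA printed here, which all 3 lines share. Wild-type (WT) Myc-CaP cells, 1 line with 2 cell libraries and 4 tumour libraries, are used only to set the KO shift beside a shift with IRE1α present.
Guide against Ern1: gcttgcatgctgttagcaag
Tumours were grafted in FVB mice. The labels do not say whether a line is 1 clone, whether the cell libraries of a line are separate cultures, or how tumours were spread over mice, so the spread behind each p-value is that of the libraries at hand and may be partly technical. Tumour cells and host are both mouse, so host transcripts are counted together with those of the cancer cells.

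IRE1α, encoded by Ern1, is a sensor in the membrane of the endoplasmic reticulum (ER). When unfolded proteins build up, its RNase domain splices Xbp1 mRNA, and the product XBP1s switches on genes for import, folding, export and degradation of secreted proteins. The other two sensors are ATF6, a transcription factor released by proteolysis that raises ER chaperones, and PERK, a kinase that slows translation and favours translation of the transcription factor ATF4. ATF4 is shared with kinases that sense amino acid shortage, and its targets make and import amino acids, charge tRNAs and blunt oxidative stress. In cells without IRE1α the ATF6 and PERK arms are in principle intact.

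KO cell libraries held 18105538 to 25068254 estimated counts and KO tumour libraries 15994285 to 27497796. The first principal component carried 80.2% of the variance and parted cells from tumours. The second carried 5.11%, with KO1 at one end and KO3 at the other. Mitochondrially encoded genes took 2.01% to 2.80% of the counts in cells and 4.53% to 9.87% in tumours. Genes that were low in all KO cells held 0.864% to 2.09% of the counts of a tumour, and culture-expressed genes held 95.0% to 96.8%. The prostate luminal genes Foxa1 and Hoxb13 were expressed in the cells, whereas Krt18, Epcam, Cdh1 and Pbsn, usual epithelial or prostate markers, were near 0 or too low to test.

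Ern1 RNA itself (chromosome 11, 106394650 to 106487852, minus strand, GRCm38) was present in all KO libraries. In cells it held 173 and 193 CPM in KO1, 200 and 200.6 CPM in KO2, and 179 and 189.9 CPM in KO3. In tumours it held 94.5, 84.6 and 82.8 CPM in KO1, 77.9, 94.4 and 81.3 CPM in KO2, and 70.6, 62.5 and 63.4 CPM in KO3. WT cells held 118 and 133 CPM and WT tumours 64.7 to 84.0 CPM, scaled over all 21 libraries, as are all WT levels below, whereas KO levels are scaled over the 15 KO libraries. Every KO tumour lay below every KO cell library, and the fall was 1.27 ± 0.07 (SE) on the log2 scale (adjusted p = 1.97e-10, edgeR). Counts per gene do not show whether the transcript carries the edit, so this level checks no label. Xbp1, counted over spliced and unspliced forms alike, had a median of 71.1 CPM in cells and 71.9 CPM in tumours, and its difference of 0.05 ± 0.07 did not pass the test (adjusted p = 0.527).

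From culture to tumour, 10924 of the 14250 tested genes changed (76.7%, adjusted p under 0.05 in the quasi-likelihood F test of edgeR), 6341 of them upward (44.5%) and 4583 downward (32.2%). Among culture-expressed genes the balance turned: 7005 of 9288 changed (75.4%), 3010 upward (32.4%) and 3995 downward (43%), with a median log2 fold change of -0.09. This balance depends on the scaling: TMM over culture-expressed genes alone gave 3479 upward and 3495 downward, and library totals 2543 and 4521. It depends on the choice of genes as well, since genes near 0 in culture cannot enter the set, whereas genes near 0 in tumours can. The downward lean is therefore partly fixed in advance. Changes of 2-fold or more were also more often downward in number, 1105 (11.9%) against 525 (5.65%). At 16-fold or more, 49 fell and 6 rose, a split that the floor on cell levels, with none on tumour levels, also partly fixes. In bulk RNA, fewer cells of a type and less RNA per cell cannot be told apart, so a fall may reflect either. The gene groups are therefore read against these background shares and not against 0.

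**Figure D1:**
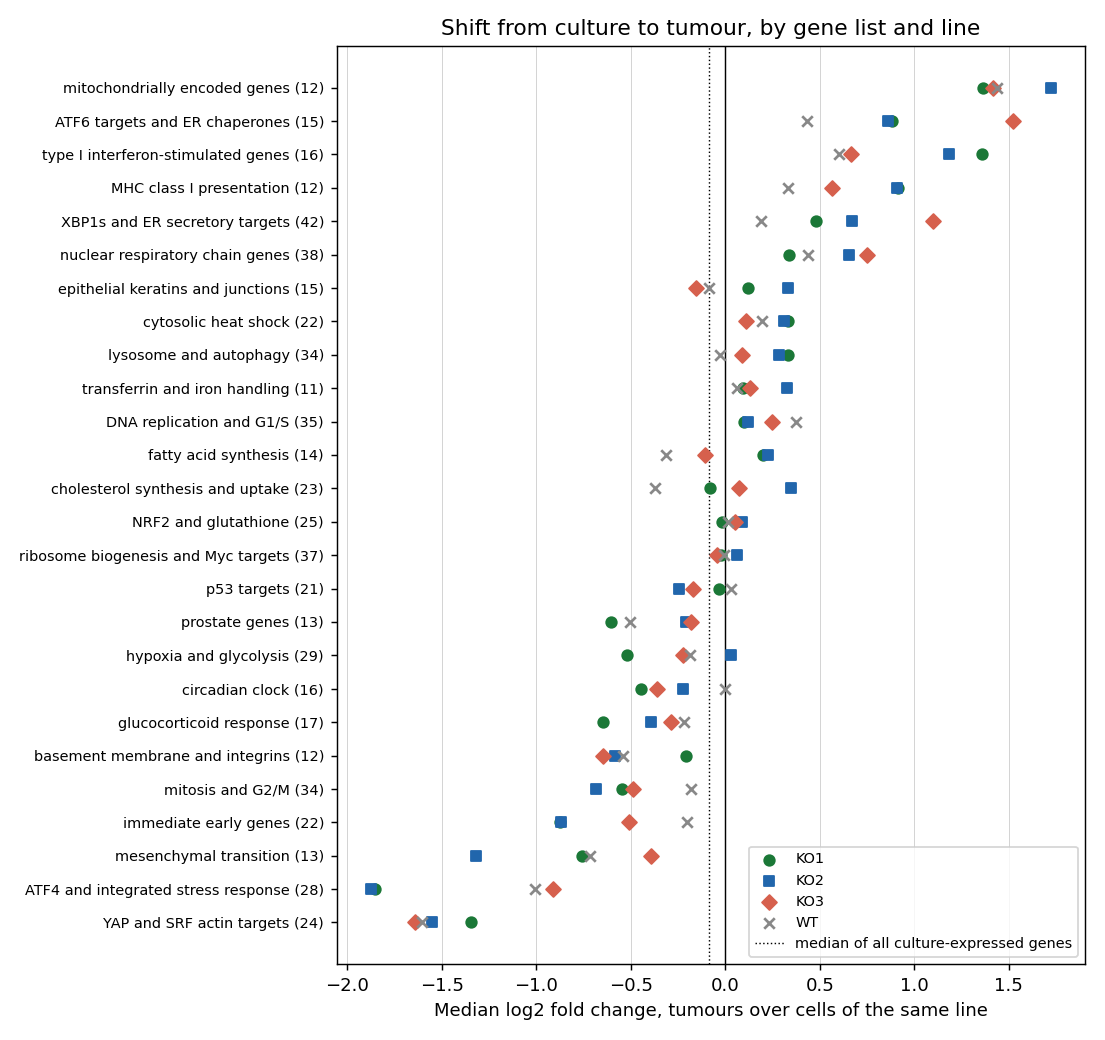
Median log2 fold change of tumours over cells of the same line (horizontal axis), for the culture-expressed members of 26 gene lists (vertical axis, number of members in brackets), in KO1, KO2, KO3 and WT. The dotted line is the median of all culture-expressed genes in KO lines, -0.09. ATF4 genes and YAP and SRF targets lie lowest in KO1 and KO2, mitochondrially encoded genes lie at 1.36 or above in all lines, and KO3 stands apart from KO1 and KO2 in the ATF4, ATF6 and XBP1s lists.

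ER chaperones rose without IRE1α. Of 15 culture-expressed members of the list of ATF6 targets and ER chaperones, 12 rose, 1 fell and 2 did not pass, with a median of 1.16 on the log2 scale, against 32.4% higher and a median of -0.09 over all culture-expressed genes. Hspa5, or BiP, the main HSP70 chaperone of the ER, lies on chromosome 2 from 34771970 to 34777547. Its level in cells was 475 and 588 CPM in KO1, 585 and 543 CPM in KO2, and 611 and 624 CPM in KO3. In tumours it was 1412, 1157 and 1251 CPM in KO1, 1396, 1857 and 1377 CPM in KO2, and 1832, 1973 and 1526 CPM in KO3. The groups did not overlap, and the rise was 1.41 ± 0.10 (adjusted p = 1.63e-09).

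Hsp90b1, the ER form of HSP90, went from a median of 480 CPM in cells (403 to 646) to 2208 CPM in tumours (1603 to 2877), a rise of 2.08 ± 0.11. Manf, a small secreted protein that is stored in the ER with BiP, went from 63.9 CPM (51.9 to 78.5) to 282 CPM (229 to 438), a rise of 2.25 ± 0.11. Calr, a lectin chaperone that binds calcium, went from 693 CPM (573 to 1059) to 2394 CPM (2147 to 2636). The disulfide isomerase Pdia4 went from 111 CPM (105 to 145) to 396 CPM (342 to 550). Each of these genes had all 9 tumours above all 6 cell libraries, as had 17.2% of culture-expressed genes, while 28.5% had all tumours below. Pdia3 and Sdf2l1, an isomerase and a partner of the ER J-domain proteins, rose by 1.89 ± 0.11 and 1.91 ± 0.19.

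The promoters of these chaperones are shown because several carry the ER stress element, the pair of boxes at which ATF6 is known to act with NF-Y. The element was searched as CCAAT, then any 9 bases, then CCACG, on both strands, from 250 bases before to 50 after the start site, in RefSeq promoters of GRCm38.p6. It was found in 5 of 13 list members with a promoter entry (38.5%) and in 0.13% of all 27025 promoters. In the stretches below, all 5′ to 3′ on the strand of the gene, capitals mark the match. Hspa5 is at chr2:34772000-34772068 on the plus strand, Hsp90b1 at chr10:86705613-86705681, Calr at chr8:84847050-84847118 and Canx at chr11:50325775-50325843, these 3 on the minus strand.
Hspa5: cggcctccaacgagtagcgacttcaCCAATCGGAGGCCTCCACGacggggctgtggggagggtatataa
Hsp90b1: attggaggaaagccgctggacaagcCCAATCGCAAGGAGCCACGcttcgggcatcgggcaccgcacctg
Calr: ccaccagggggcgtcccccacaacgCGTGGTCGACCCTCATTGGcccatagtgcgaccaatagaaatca
Canx: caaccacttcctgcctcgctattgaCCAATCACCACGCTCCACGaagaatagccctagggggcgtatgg
The match in Calr is on the reverse strand. Canx, which encodes the membrane lectin chaperone calnexin rose by 0.72 ± 0.10. A match of letters is a description and does not show that a factor was bound.

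The list of XBP1s and ER secretory targets also moved upward although the lines lack IRE1α. Of its 42 culture-expressed members 32 rose, 1 fell and 9 did not pass, and the median was 0.72. Ssr1, a subunit of the translocon-associated protein complex, went from a median of 141 CPM (120 to 161) in cells to 282 CPM (237 to 458) in tumours. Sec11a, the catalytic subunit of signal peptidase, went from 63.2 CPM (59.0 to 71.5) to 159.9 CPM (114 to 182). Dnajb9, an ER J-domain protein and a textbook XBP1s target, overlapped between the groups: it held 9.11 to 14.6 CPM in cells, 11.4 to 16.9 CPM in KO1 and KO2 tumours, and 40.4, 42.3 and 38.0 CPM in KO3 tumours. Its rise over the 3 lines was 0.83 ± 0.24 (adjusted p = 0.00453), and it did not pass when the libraries of a line were summed. The shorter core CCACG, which is part of the ER stress element, was found in 25 of 32 members of this list (78.1%) and in 32.7% of all promoters.

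Genes of the ATF4 programme moved the other way. None of 28 culture-expressed members rose, 25 fell and 3 did not pass, with a median of -1.54, against 43% lower over all culture-expressed genes. Atf4 itself (chromosome 15, 80255184 to 80257541) held 477 and 439.7 CPM in KO1 cells, 474 and 557 CPM in KO2 cells, and 217 and 223 CPM in KO3 cells. In tumours it held 93.0, 103 and 108 CPM in KO1, 134, 159.9 and 143 CPM in KO2, and 192, 115 and 138 CPM in KO3. All tumours were below all cell libraries, and KO3 cells were the lowest of the cells. The fall was 1.56 ± 0.20 on the log2 scale (adjusted p = 2.23e-06).

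Trib3, a pseudokinase induced by ATF4 and CHOP, held 119 and 120.3 CPM in KO1 cells, 109 and 124 CPM in KO2 cells, and 23.9 and 29.9 CPM in KO3 cells. Its tumours ranged from 0.897 to 8.84 CPM with a median of 2.63 CPM, and the fall was 4.43 ± 0.46. Psat1, which makes the precursor of serine, went from a median of 468 CPM (425 to 511) to 108 CPM (90.8 to 126), a fall of 2.06 ± 0.08 that was nearly the same in each line, -2.09, -2.06 and -2.04. Asns, which makes asparagine, held 215 to 440.4 CPM in cells and 76.7 to 104 CPM in tumours. Pycr1, an enzyme of proline synthesis, Chac1, which degrades glutathione, and Ppp1r15a, which reverses the translational block, fell by 2.90 ± 0.22, 2.79 ± 0.28 and 2.60 ± 0.20. The mitochondrial serine enzyme Shmt2, the transcription factor Atf5 and the cysteinyl-tRNA synthetase Cars fell by 1.79 ± 0.11, 2.33 ± 0.14 and 2.19 ± 0.13. Ddit3, which encodes CHOP, was below the culture limit, and its difference of -0.55 ± 0.41 did not pass.

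The composite site of ATF4 with C/EBP proteins was searched by its core TGATGNAA on both strands. It was present in 7 of 23 members with a promoter entry (30.4%) and in 4.06% of all promoters. The stretches below belong to members that fell at least 1.94 on the log2 scale, and capitals again mark the match. Chac1 is at chr2:119351024-119351081 on the plus strand, with the match on the reverse strand, Asns at chr6:7693210-7693257 and Pycr1 at chr11:120643819-120643876, both on the minus strand.
Chac1: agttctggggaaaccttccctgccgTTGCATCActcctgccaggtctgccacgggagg
Asns: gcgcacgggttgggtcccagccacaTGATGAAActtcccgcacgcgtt
Pycr1: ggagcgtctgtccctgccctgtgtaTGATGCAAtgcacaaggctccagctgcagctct
Nupr1 and Slc7a11, which also hold the core, are 2 members whose shift over the 3 lines did not pass the test, and both moved in opposite directions in different lines.

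**Figure D2:**
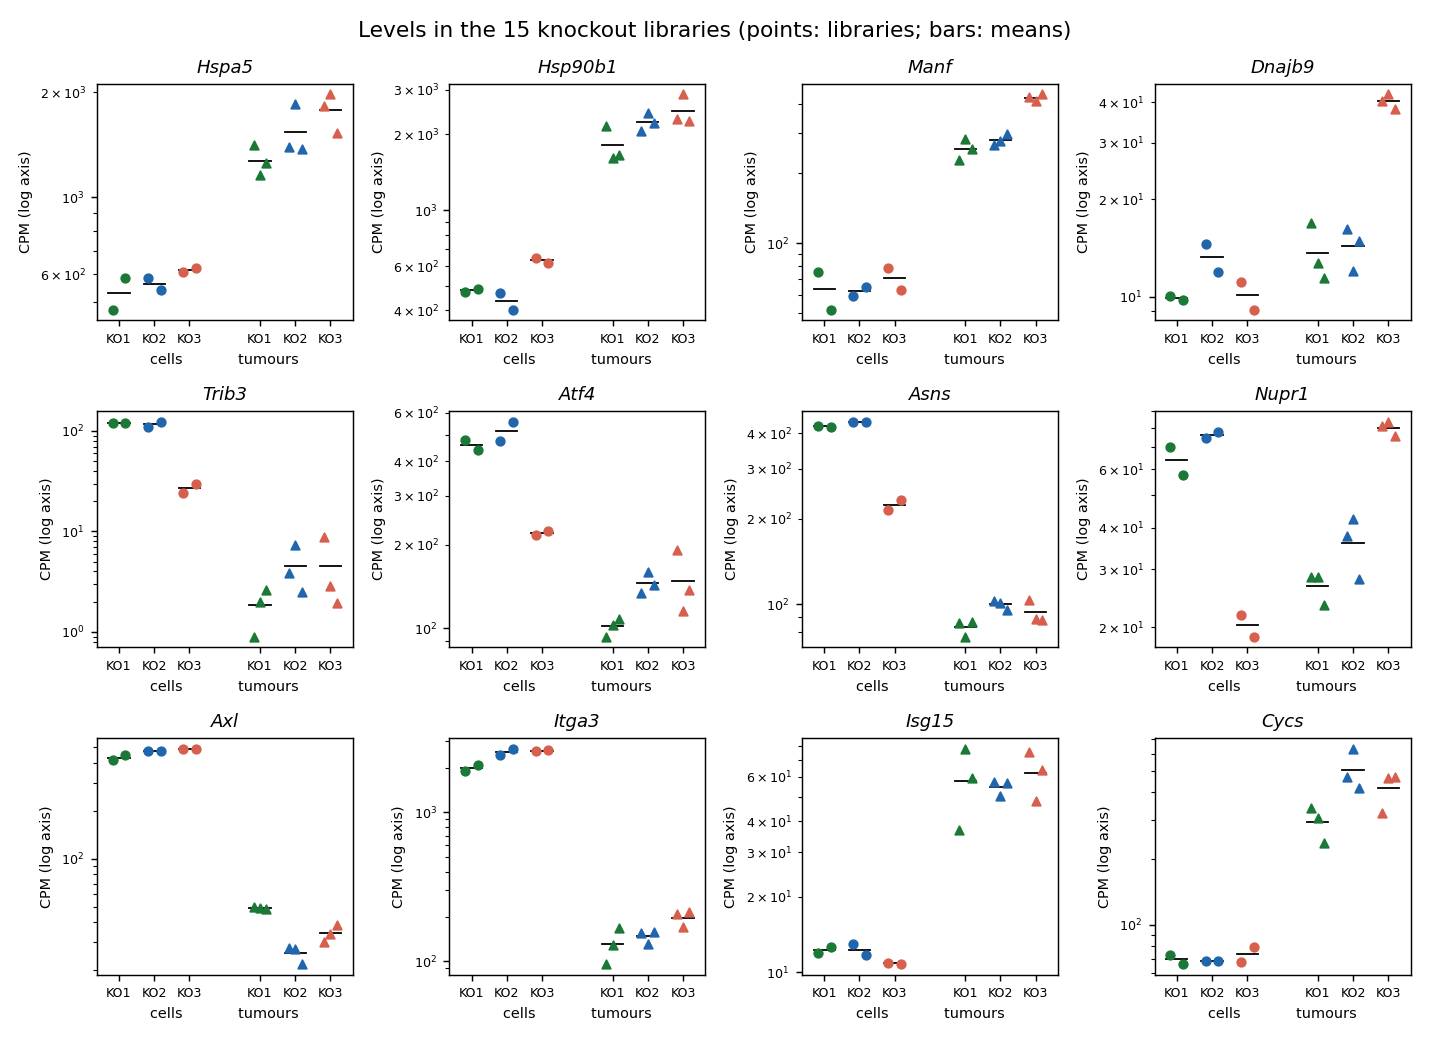
Level in CPM (vertical log axis, a different range in each panel) of 12 genes in the 15 KO libraries, by line and setting (horizontal axis); circles are cell libraries, triangles tumours and bars means. Trib3, Atf4 and Asns differ between lines mostly in cells, Dnajb9 and Manf mostly in tumours, where KO3 is highest, and Nupr1 reverses its order of lines.

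The lines shared most of the shift. Tested alone, KO1 changed in 5564 culture-expressed genes (59.9%), KO2 in 5911 (63.6%) and KO3 in 5532 (59.6%), and 4052 passed in each line with the same sign, 1555 upward and 2497 downward. Across the 9288 genes, which are not independent replicates, the shifts correlated with a Pearson r of 0.95 for KO1 and KO2, 0.898 for KO1 and KO3 and 0.918 for KO2 and KO3. The size of the shift differed among lines in 556 culture-expressed genes (5.99%). Only 33 differed between KO1 and KO2 (0.355%), whereas 677 set KO3 against the mean of KO1 and KO2 (7.29%), 343 with the higher log2 shift in KO3 (3.69%) and 334 with the lower (3.6%). Over all tested genes 777 differed among lines (5.21%). On simulated counts, 2-fold differences were recovered in 40% of genes among lines, 47% for KO1 against KO2 and 58% for KO3. Genes not called are thus not shown to be alike. The KO1 against KO2 calls over all tested genes (0.315%) were 29 higher and 18 lower in KO1, and 47 and 17 with the RLE scaling or 46 and 13 with library totals. These line counts rest on few libraries: without KO3 cells replicate 2 the count of KO3 differences over all tested genes went from 938 (6.29%) to 302, and without KO3 cells replicate 1 to 325.

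Where the lines differed, the ATF4 and XBP1s lists did so at opposite ends of the comparison. Of the 28 ATF4 genes, 15 shifted differently among lines, and in 14 of these the line means on the log2 scale spread more widely in cells than in tumours. Spreads were taken on log2 of CPM plus 1, which narrows the spread of genes at low CPM. Of the 42 XBP1s genes, 20 shifted differently, and in 19 of these the spread was wider in tumours. Over all 556 such genes the spread was wider in cells for 328 and in tumours for 228. The median spread over the 28 ATF4 genes was 0.877 in cells and 0.28 in tumours, over the 42 XBP1s genes 0.269 and 0.696, and over all culture-expressed genes 0.227 and 0.235. No test was made of these counts, since a difference in shift must show in one setting or the other. KO3 had the lowest cell mean of the 3 lines in all 15 of those ATF4 genes, and the highest tumour mean in all 20 of those XBP1s genes. Among the 556 it was lowest in cells for 227 and highest in tumours for 233.

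Named members show the same at the level of line means. Asns stood in cells of KO1, KO2 and KO3 at 424, 440.0 and 224 CPM and in their tumours at 83.0, 99.7 and 93.6 CPM. Chac1 stood at 63.0, 91.6 and 25.1 CPM and then at 5.52, 10.0 and 8.65 CPM. Sesn2, a stress-induced inhibitor of mTORC1, stood at 76.0, 93.0 and 28.9 CPM and then at 10.0, 11.4 and 12.8 CPM, and the KO3 shift was higher by 1.80 ± 0.15 (adjusted p = 3.29e-05). Each of the 3 genes was lowest in KO3 cells, and in tumours the line means lay closer together, with KO1 lowest.

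On the secretory side, P4hb, a disulfide isomerase, stood in cells of KO1, KO2 and KO3 at 615, 577 and 736 CPM and in their tumours at 692, 745 and 1950 CPM. Spcs2, a subunit of signal peptidase, stood at 58.5, 57.6 and 60.7 CPM and then at 69.3, 69.3 and 140.4 CPM, and the KO3 shift was higher by 0.96 ± 0.09 (adjusted p = 9.36e-05). Creb3l2, a transcription factor of secretory cells, fell by 1.31 in KO1 and 1.89 in KO2, KO1 from a mean of 54.5 down to 22.04 CPM and KO2 from 67.3 down to 18.1 CPM. In KO3 it went from 62.0 to 69.4 CPM, and the KO3 shift was higher by 1.76 ± 0.10 (adjusted p = 7.99e-07).

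Some genes turned in opposite directions. In 80 culture-expressed genes at least 2 lines passed with opposite signs, 56 of them between KO1 and KO3, 33 between KO2 and KO3 and 15 between KO1 and KO2. Nupr1, a stress-induced chromatin protein, went from 63.8 to 26.7 CPM in KO1 and from 76.1 to 36.1 CPM in KO2 but from 20.3 to 80.1 CPM in KO3. Slc7a11, the cystine importer, shifted by -2.71 in KO1, -0.42 in KO2 and 1.5 in KO3. The following were picked after their values were seen. Sec24d, a COPII coat protein, and Sec61a1, the pore of the translocon, shifted by -0.54 and -0.25 in KO1, by -0.75 and -0.17 in KO2, and by 0.70 and 0.51 in KO3. Atf6 itself shifted by -0.33, -0.35 and 0.72. Gm2a, a lysosomal lipid activator, went the other way, with 0.75 in KO1, 0.33 in KO2 and -1.73 in KO3.

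**Figure D3:**
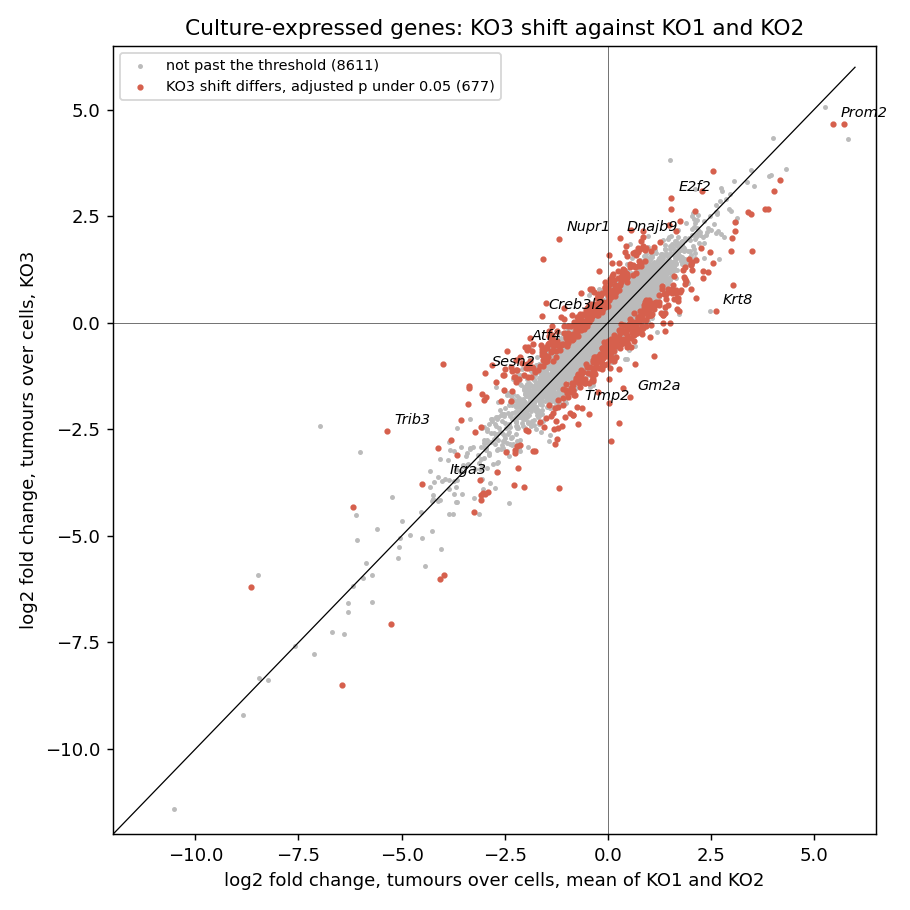
Log2 fold change of tumours over cells in KO3 (vertical axis) against the mean of KO1 and KO2 (horizontal axis) for 9288 culture-expressed genes; red points are the 677 whose KO3 shift differed, and the diagonal marks equal shifts. Most points follow the diagonal, with Nupr1, Dnajb9 and Creb3l2 above it and Gm2a, Timp2 and Krt8 below.

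Genes of adhesion, actin and the YAP and SRF programmes fell in all lines. YAP, a coactivator held back by the Hippo pathway, and SRF, which responds to polymerised actin, are known to respond to cell spreading and to stiffness. Of 24 culture-expressed members none rose, 21 fell and 3 did not pass, with a median of -1.56 and line medians of -1.35, -1.56 and -1.64. Axl, a receptor tyrosine kinase, went from a median of 475 CPM (414 to 491) to 33.8 CPM (21.9 to 50.0), a fall of 3.74 ± 0.14 (adjusted p = 8.68e-13). Amotl2, a regulator of YAP, went from 258 CPM (203 to 299) to 27.9 CPM (18.9 to 38.0). The focal adhesion protein Zyx went from 128 CPM (107 to 166) to 13.5 CPM (9.90 to 18.03). Ctgf and Cyr61, matricellular proteins that are the usual readout of YAP, fell by 2.79 ± 0.14 and 2.27 ± 0.18, and the actin crosslinker Flna by 2.08 ± 0.11.

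Receptors for the basement membrane fell with them. In the list of basement membrane and integrins 10 of 12 culture-expressed members fell and 2 rose, with a median of -0.56. Itga3, a laminin receptor subunit, went from 1906 to 2674 CPM in cells, median 2500, to 96.4 to 214 CPM in tumours, median 158, a fall of 3.92 ± 0.11 (adjusted p = 5.90e-14). Itga5, a fibronectin receptor subunit, went from 251 CPM (240.5 to 339.7) to 31.3 CPM (23.2 to 36.0). Lama5, a laminin chain, fell by 2.16 ± 0.12. Itgb1, the shared partner of these integrins, was 1 of the 2 that rose, by 0.65 ± 0.10, with overlapping groups. Of the 16 tested members outside the culture-expressed set 14 rose, and markers of fibroblasts and endothelium, cells that make collagen and laminin, rose with them. Genes outside that set can enter the test through their tumour level alone, so the 14 rises are partly fixed in advance.

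Immediate early genes and feedback inhibitors of growth factor signalling were lower. Of 22 culture-expressed members 17 fell, 2 rose and 3 did not pass, with a median of -0.80. Fosl1, an AP-1 subunit, went from 39.7 CPM (22.8 to 47.0) to 1.84 CPM (0.897 to 3.43), a fall of 4.04 ± 0.22. Dusp6, the ERK phosphatase, went from 68.8 CPM (61.5 to 71.8) to 18.6 CPM (15.99 to 22.4). Errfi1, an inhibitor of the EGF receptor and a glucocorticoid-responsive gene, went from 430.1 CPM (332 to 479) to 57.5 CPM (37.4 to 73.2), a fall of 2.97 ± 0.08. The glucocorticoid list held 10 falls and 5 rises among 17 members, with a median of -0.36. In the mesenchymal list 8 of 13 fell and 4 rose, with a median of -1.05. All 10 of its tested members outside the culture-expressed set rose, which is partly fixed in advance, since such genes can enter the test through their tumour level alone.

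Respiratory chain genes rose in both genomes. All 12 culture-expressed mitochondrially encoded genes rose, with a median of 1.69, and 30 of 38 nuclear genes of the chain rose and none fell, with a median of 0.55. mt-Co1, a core subunit of cytochrome oxidase, went from a median of 7332 CPM (5858 to 8622) to 24012 CPM (16977 to 37247). Cycs, cytochrome c, went from 68.3 CPM (66.3 to 79.0) to 421 CPM (235 to 633), a rise of 2.49 ± 0.15, and Cox7c rose by 1.64 ± 0.10. No gene of either list passed the test of a difference among lines. Skeletal muscle, a tissue rich in mitochondria, left markers that summed to 143 to 206 CPM in cells and 235 to 1922 CPM in tumours, and their part in these rises was not tested. By line the muscle sums of tumours were 904 to 1922 CPM in KO1, 320 to 1483 CPM in KO2 and 235 to 279 CPM in KO3, so that KO1 and KO2 overlapped. The median shift of the nuclear chain genes was 0.34 in KO1, 0.65 in KO2 and 0.75 in KO3.

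Glycolysis, cell cycle and Myc target lists were mixed. Of 29 hypoxia and glycolysis genes 14 fell and 4 rose, with a median of -0.30. Pgk1, a glycolytic kinase, fell by 1.13 ± 0.12, and Ero1l, which feeds oxidising power to disulfide isomerases and is induced by hypoxia, rose by 1.53 ± 0.16. In the mitosis list 20 of 34 fell and 4 rose, with a median of -0.59, among them the transcription factor Foxm1 at -1.5 ± 0.16 and Anln, an actin organiser of cytokinesis, at -1.27 ± 0.13. The replication list leaned the other way, with 14 rises and 8 falls among 35 and a median of 0.14, and Ccne2, a cyclin of S phase entry, rose by 1.98 ± 0.14. Mki67, the usual proliferation marker, rose by 0.99 ± 0.13 with overlapping groups, from a median of 74.3 CPM to 158 CPM. Myc, counted as the mouse gene, went from 448 CPM (409 to 519.9) to 262 CPM (210.3 to 407), a fall of 0.66 ± 0.13. The list of ribosome biogenesis and Myc targets split into 13 rises and 14 falls of 37. Its median of -0.01 lay between -0.10 and 0.08 over the alternative settings.

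Lipid and lysosomal genes showed single large rises inside mixed lists. Of 14 fatty acid synthesis genes 7 rose and 4 fell, and Fasn, fatty acid synthase, went from 249 CPM (238 to 341) to 861 CPM (693 to 1095). Of 23 cholesterol genes 9 rose and 7 fell, with a median of 0.10 that took either sign over the alternative settings, -0.14 to 0.22. The lysosome and autophagy list held 19 rises and 10 falls of 34, with a median of 0.24. The sialidase Neu1 went from 23.2 CPM (20.6 to 33.9) to 146 CPM (115 to 217), and the protease Ctsd from 459 CPM (387 to 589) to 1846 CPM (1371 to 1966), whereas the autophagy adaptor Sqstm1 fell by 1.56 ± 0.11. Ctsd and Neu1 are also abundant in macrophages, whose markers rose in every tumour.

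Redox, iron, heat shock, p53 and clock lists were divided. Of 25 NRF2 and glutathione genes 12 rose and 10 fell, and the median of 0.07 changed sign over the alternative settings, -0.09 to 0.17. Prdx1, a peroxiredoxin, rose by 1.76 ± 0.12 and Gstm1, a glutathione transferase, fell by 2.43 ± 0.16. Tfrc, the transferrin receptor, rose by 1.20 ± 0.21 while Fth1, the heavy chain of ferritin that stores iron, fell by 1.42 ± 0.19, in a list with 5 rises and 5 falls of 11. Of 22 cytosolic heat shock genes 11 rose and 5 fell, led by the chaperone Hsph1 at 1.17 ± 0.09. Of 21 p53 targets 7 rose and 11 fell. Of 16 clock genes 2 rose and 9 fell: Arntl, the BMAL1 subunit, fell by 2.32 ± 0.12 and its partner Clock rose by 1.66 ± 0.14.

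Interferon-stimulated genes rose, together with leukocyte markers. Of 16 culture-expressed members 13 rose, 2 fell and 1 did not pass, with a median of 1.06. Of 25 other tested members 24 rose, but genes low in cells can enter the test through their tumour level alone. Their rise is therefore partly fixed in advance and lends no support. Isg15, a ubiquitin-like modifier, went from a median of 11.8 CPM (10.8 to 12.9) to 57.1 CPM (36.8 to 77.7), and Bst2, which tethers virus particles, from 48.4 CPM (40.1 to 63.7) to 282 CPM (184 to 334). In the MHC class I list 8 of 12 rose and 2 fell, with a median of 0.78. B2m, the light chain of MHC class I, went from 466 CPM (389.8 to 812) to 3031 CPM (2472 to 4042), and H2-K1, a heavy chain, rose by 2.49 ± 0.13. Calr and Pdia3, described with the chaperones, also belong to the MHC class I list.

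The core of the interferon-stimulated response element was searched as GAAA, then any 2 bases, then GAAA, on both strands. It was present in 5 of 12 members with a promoter entry (41.7%) and in 3.49% of all promoters. Isg15, at chr4:156200856-156200915, and Bst2, at chr8:71537568-71537627, both on the minus strand, are shown because their levels did not overlap between cells and tumours. Isg15 has 3 matches, of which the middle one overlaps both others and is in capitals, and Bst2 has 2, of which the first is in capitals.
Isg15: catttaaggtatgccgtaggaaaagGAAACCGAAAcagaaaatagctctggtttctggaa
Bst2: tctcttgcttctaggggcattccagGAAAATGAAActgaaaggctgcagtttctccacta

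Leukocyte, T cell and endothelial markers were low in culture and higher in every tumour, whereas the fibroblast and muscle lists already held 203 and 143 CPM or more in cells. The 23 leukocyte and macrophage markers summed to 11.4 to 14.7 CPM in cells, where 10 of them had 0 counts in all KO cells, and to 1015 to 2698 CPM in tumours, and 22 of the 23 were above all cell libraries in every tumour. KO1 tumours had the highest sums, 2209 to 2698 CPM, against 1015 to 1383 CPM in KO2 and 1339 to 1876 CPM in KO3. Marker sums are scaled by library totals without TMM, whose factors were 1.043 to 1.056 in KO1 tumours and 0.9163 to 0.9682 in KO2 and KO3 tumours. T and NK cell markers were low throughout, 0.608 to 0.957 CPM in cells and 8.70 to 20.2 CPM in tumours. All 16 endothelial markers were above all cell libraries in every tumour, and their sum rose from 3.45 to 5.41 CPM up to 201 to 345 CPM. Only 1 of the 23 leukocyte markers and 0 of the 16 endothelial ones were culture-expressed. The 17.2% of culture-expressed genes without overlap is therefore no measure for these counts, which only describe the markers. Fibroblast markers summed to 203 to 314 CPM in cells and 1033 to 4298 CPM in tumours, again highest in KO1. The part of these cells in the interferon, MHC class I, lysosome and matrix results was not tested. KO1 also had the highest line median of the interferon list, 1.36, against 1.18 in KO2 and 0.66 in KO3. For its 16 culture-expressed members, the line means lay further apart in culture. Their median spread, again on log2 of CPM plus 1, was 0.468 in cells and 0.178 in tumours. What set this order of lines was not tested.

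**Figure D4:**
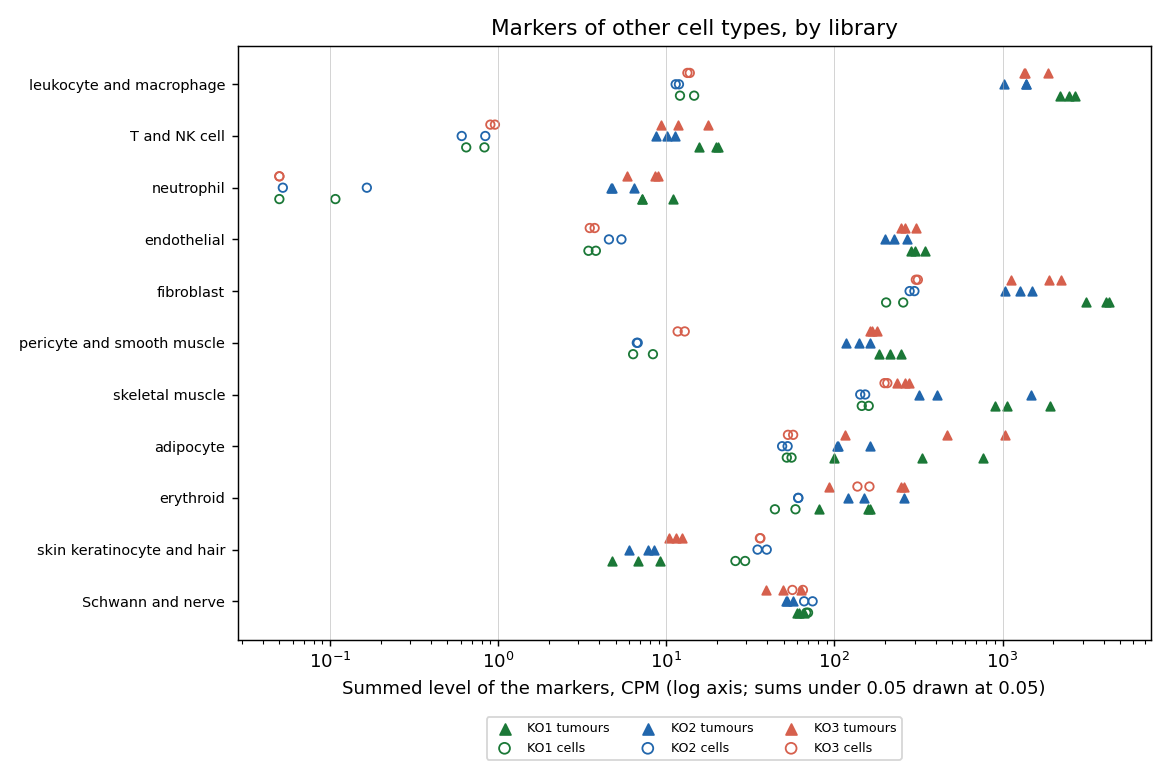
Summed level in CPM (horizontal log axis; sums under 0.05 are drawn at 0.05) of markers of 11 other cell types (vertical axis) in each KO library; open circles are cells and triangles tumours, coloured by line. Leukocyte, endothelial and pericyte sums part cells from tumours completely, and KO1 tumours are highest for leukocytes and fibroblasts.

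Prostate and epithelial genes did not move as one. Of 13 members of the prostate list 7 fell and 5 rose, with a median of -0.26. Steap2 and Steap4, metalloreductases first described in prostate, went apart: Steap2 fell from 377 CPM (329 to 408) to 32.4 CPM (28.2 to 41.3), and Steap4 rose from 9.50 CPM (6.20 to 11.8) to 114 CPM (70.7 to 154). Among 15 epithelial keratins and junction genes 7 rose and 7 fell, and the median of 0.35 took either sign over the alternative settings, -0.02 to 0.46. Krt7, a keratin of simple epithelia, rose by 3.12 ± 0.17, and Cldn1, a tight junction protein, went from 38.7 CPM (31.6 to 50.2) to 2.45 CPM (1.33 to 4.83). Krt8, the luminal keratin, stood in cells of KO1, KO2 and KO3 at 31.5, 27.1 and 147 CPM and in their tumours at 258, 127 and 179 CPM, and the shift differed among lines (adjusted p = 0.030).

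The largest rises among named genes began from low levels in culture. The limit of 5 CPM was set on library totals, and the levels printed for single genes are scaled by TMM, so a printed level can lie slightly under it. Greb1 (chromosome 12, 16670615 to 16800886), a hormone-responsive coactivator, held 4.98 to 10.2 CPM in cells and 198 to 345 CPM in tumours, a rise of 5.35 ± 0.20. Cited1, a transcriptional coregulator, rose by 5.28 ± 0.33, Lcn2, an iron-binding lipocalin, by 5.19 ± 0.15, and Prom2 (chromosome 2, 127526473 to 127541467), a membrane protein of epithelial protrusions, by 5.18 ± 0.16. Prom2 stood at 9.45 to 22.03 CPM in cells and 492 to 581 CPM in tumours. Lcn2, which neutrophils also make, held 180.1 to 378 CPM in tumours. Neutrophil markers summed to at most 0.166 CPM in cells and 4.72 to 11 CPM in tumours, and their part in this rise was not tested.

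The largest falls left levels near 0. Krt4 (chromosome 15, 101918535 to 101924735), a keratin of stratified epithelium, held 329 and 384 CPM in KO1 cells, 492 and 503 CPM in KO2 cells, and 1009 and 1063 CPM in KO3 cells. In tumours it held 0.716 to 4.83 CPM with a median of 1.37 CPM, a fall of 8.41 ± 0.21 (adjusted p = 1.13e-14). Rab3b, a small GTPase of regulated secretion, went from 96.8 to 125 CPM down to 0.150 to 0.751 CPM. Cxcl15, a chemokine, went from 35.5 to 55.1 CPM in cells to 0.0537 CPM at the tumour median, which is below the level that 3 counts stand for, 0.109 to 0.188 CPM by library. Syt13, an atypical synaptotagmin, held 15.3 to 21.2 CPM in cells and 1 count in all 9 tumours together, and Adra1b, an adrenergic receptor, 9 counts.

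The shift of KO lines was set beside that of WT cells in the same change of setting. In WT, 5366 culture-expressed genes changed (57.8%), and the gene-wise shifts of KO1, KO2 and KO3 correlated with it at an r of 0.883, 0.891 and 0.912, without shared libraries. The KO shift differed from the WT shift in 424 culture-expressed genes (4.57%), 345 with the higher log2 shift in KO (3.71%) and 79 with the lower (0.851%). WT is 1 line, so genotype and line cannot be told apart here. In the library of WT tumours replicate 4 the abundant transcript Yam1 took 24.0% of the counts, against 5.51% to 9.22% elsewhere, and without that library 644 genes differed in place of 599 (3.95%) over all 15173 tested. Without WT cells replicate 1 or replicate 2 the count was 259 or 257.

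The secretory lists held differences of 1 sign. The KO shift was higher in 17 of 42 XBP1s genes and lower in none, and higher in 7 of 15 ATF6 genes and lower in none, beside 3.71% and 0.851% over all culture-expressed genes. Manf stood at 254 and 243 CPM in WT cells and 452 to 526 CPM in WT tumours, so that its WT shift was 0.96 and the KO shift was higher by 1.27 (adjusted p = 0.000117). Hspa5 stood at 1404 and 1350.4 CPM in WT cells and 1512 to 2382 CPM in WT tumours, and the KO shift was higher by 0.96 (adjusted p = 0.00786). For both genes the WT cells lay above all KO cells. Among ATF4 genes the KO shift was lower in 8 of 28 and higher in none: Trib3 fell by 2.03 in WT and Asns by 1.10, less than in KO.

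Outside the lists, Anpep, a membrane aminopeptidase, held 159.7 and 167 CPM in WT cells and 53.3 to 65.3 CPM in WT tumours, and its KO shift was higher by 1.71 ± 0.11 (adjusted p = 1.74e-07). Psca, a surface antigen of the prostate, and Zfp750, a factor of squamous differentiation, rose in KO by 1.58 ± 0.25 and 1.57 ± 0.13, with WT shifts of -0.36 and -0.14. Prkg2, a cGMP-dependent kinase, and Palld, an actin scaffold, had the lower shift in KO, by 2.48 ± 0.39 and 1.57 ± 0.24. Of 24 YAP and SRF targets the KO shift was higher in 2 and lower in 0, with a WT median of -1.60. Over all culture-expressed genes the shares were 3.71% and 0.851%. Neither respiratory list held a gene with such a difference.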

How the data were processed

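The 21 libraries were sequenced from polyA RNA with a kit that keeps strand, per the labels' protocols. Per the submitters' processing notes, reads went through Trim Galore 0.6.7, STAR and Salmon 1.5.2 with the mouse build GRCm38, settings and annotation not given in the sources used here. The authors deposited estimated counts per gene, not normalized, in 1 table for all libraries, and a second table of estimated counts scaled by transcript length served as an alternative. Values were rounded before testing, since 7.96% to 10.2% of them, by library, were fractional.

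Groups come from the sample titles. Testing used edgeR 4.0.16 under R 4.3.3 (quasi-likelihood), with filterByExpr, TMM scaling and Benjamini-Hochberg adjustment at 0.05 over all genes tested, and it was checked on simulated counts. There 6.53% of calls were false for tumours against cells and 8.33% for the shift of 1 line, both above the threshold of 0.05. Of simulated 2-fold changes, 87% and 69% were recovered. The comparison of KO tumours and KO cells had the line as a block. Line shifts came from a fit of 6 groups, line by setting, and KO minus WT shifts from a fit of 8 groups over all 21 libraries. Levels are CPM, not corrected for gene length, scaled by TMM for single genes and by library totals alone for marker sums. No replicate pair lay within sampling noise (chi-square per degree of freedom at least 8.77).

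The members and the 26 gene lists and 11 lists of other cell types were chosen with earlier results of these data known. Named genes are the 12 largest rises and 12 largest falls without overlap, the 4 list members with the smallest p, the 6 per direction with the smallest p in each contrast of shifts, and a few genes always named. Other members named were chosen after their values were seen, and a few genes are not reported here. Positions are those of GENCODE M21 and promoters those of RefSeq. Alternatives were RLE scaling, library totals, TMM over culture-expressed genes, no filter, the length-scaled table, DESeq2 1.42.0, limma 3.58.1 (voom), sums per line, no line block, a replicate block, other CPM minimums, and leaving out each library or line.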

Additional observations from a re-analysis of the deposited data

Results flagged for a closer look

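Among named genes and marker sums, 7 groups of libraries, all of them for genes, held 1 library far from the others, of 358 groups examined. Chance alone gives about 1 in 20. Zfp185 was lowest in KO1 cells replicate 1, at 8.69 CPM against 11.55 to 12.71 CPM in the other cells. KO1 tumours replicate 1 had the lowest Nhp2, 156 CPM against 190.7 to 220.8 CPM, the lowest Ier5, 11.2 CPM against 15.03 to 20.33 CPM, and the lowest Plk3, 4.72 CPM against 6.6 to 9.105 CPM. Ptpn14 was highest in KO1 tumours replicate 3, at 37.1 CPM against 20.86 to 26.99 CPM. Col4a5 was lowest in KO3 tumours replicate 2, at 9.9 CPM against 11.68 to 13.14 CPM. Syt13 was at 0.0589 CPM, 1 count, in KO1 tumours replicate 2 and at 0 in the other tumours.

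The shift from culture to tumour differed among KO1, KO2 and KO3 in 45 of 160 named culture-expressed genes, beside 5.99% of all culture-expressed genes, and some of the 160 were named because of this contrast. Values in this paragraph are adjusted p-values of the edgeR test among KO1, KO2 and KO3, not of the KO3 contrast that gives the direction. Those in the next paragraph are adjusted p-values of the edgeR contrast of KO and WT shifts. The KO3 shift lay above that of the other 2 lines for the transcription factors and stress genes Creb3l2 (2.17e-06), Nupr1 (7.62e-06), Sesn2 (0.000102), Atf4 (0.00352) and Sqstm1 (0.016), and for the secretory genes Spcs2 (0.000364) and Dnajb9 (0.00151). The same held for E2f2 (3.78e-05), Camk1d (0.000106), Rgs2 (0.000951), Arhgef2 (0.0015), Ciart (0.00855), Snhg5 (0.00957), Steap2 (0.0117), Arntl (0.03), Klf15 (0.0377) and Cdsn (0.0482). The KO3 shift lay below for the epithelial, junction and actin genes Ablim1 (3.78e-05), Cgnl1 (0.000807), Prom2 (0.00221), S100a14 (0.00997), Zfp750 (0.0148) and Krt8 (0.03), and for the matrix genes Timp2 (0.000106), Col5a1 (0.00225) and Col4a5 (0.0238). It also lay below for Gm2a (5.31e-05), Endod1 (0.000585), Porcn (0.000961), Psca (0.0053), Zfp185 (0.0246), Sccpdh (0.0284), Greb1 (0.0306) and Ifi27 (0.0419), and for the sterol enzymes Acat2 (0.00957) and Nsdhl (0.0336). In the other 9 the lines differed without a called contrast of KO3: S100a4 (0.00297), Krt78 (0.00352), Lyplal1 (0.00365), Car14 (0.00404), Axl (0.00427), Txnip (0.00468), Efna1 (0.00554), Ptpn13 (0.0303) and Fth1 (0.0459).

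The KO shift differed from the WT shift in 50 of the 160, beside 4.57% of all culture-expressed genes. Some of the 160 were named because of this contrast too, so the 50 are not a fair sample. It was higher in KO for the chaperones and secretory genes Pdia6 (0.000103), Manf (0.000117), Ssr1 (0.000128), Pdia4 (0.000217), Spcs2 (0.000217), Hsp90b1 (0.000471), Calr (0.000871), Hspa5 (0.00786) and Pdia3 (0.0385). It was higher too for the lipid genes Acaca (0.00202), Idi1 (0.00249), Acat2 (0.0026), Fasn (0.00446) and Fads1 (0.0338). Others with the higher KO shift were Anpep (1.74e-07), Zfp750 (4.6e-07), Prom2 (5.21e-07), Car14 (1.27e-05), Ptpn13 (4e-05), Psca (9.27e-05), Timp2 (0.00087), Ablim1 (0.00139), Steap4 (0.00146), Ifi27 (0.00485), S100a4 (0.00927), Camk1d (0.0106), Mfsd7c (0.0259), Itgb1 (0.0266), Greb1 (0.0268), Col4a5 (0.0279), Krt19 (0.0328), Gm2a (0.0337), Ddx58 (0.0431) and Col12a1 (0.0457). It was lower in KO for the stress genes Sesn2 (0.00423), Sqstm1 (0.0101), Nupr1 (0.0234) and Cars (0.0338), for Ern1 (0.0265), and for Sccpdh (0.000309), Arhgef2 (0.000309), Palld (0.000759), Etl4 (0.000759), Snhg5 (0.000962), Prkg2 (0.000963), Rgs2 (0.00182), Ciart (0.00298), Cdsn (0.0159) and Ier5 (0.0301). WT is 1 line, so line and genotype cannot be told apart in these values.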

How the results depend on the processing

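Leaving out 1 library at a time kept the calls between KO tumours and cells at 10686 to 10923 of all tested genes and 6737 to 7066 culture-expressed genes. The shift of single lines ranged from 7479 to 9437 genes in KO1, 7813 to 10114 in KO2 and 7432 to 9639 in KO3. Counts of differences between shifts moved more: 286 to 1289 among lines (777 with all libraries), 302 to 1334 for KO3 against the other lines (938), 1 to 116 for KO1 against KO2 (47) and 257 to 780 for KO against WT (599). The count among lines fell to 385 and 415 without KO1 cells replicates 1 and 2, 500 and 400 without KO2 cells replicates 1 and 2, 321 without KO3 cells replicate 1 and 286 without KO3 cells replicate 2, and rose to 1289 without KO1 tumours replicate 1. For KO3 against the other lines it fell to 622 without KO1 cells replicate 1 and 563 without KO2 cells replicate 2, and for KO1 against KO2 to 1 to 6 without any 1 cell library of those lines. The latter was 21 and 29 without KO1 tumours replicates 2 and 3, 30 without KO2 tumours replicate 3, 116 without KO1 tumours replicate 1 and 97 without KO3 tumours replicate 1. Without WT cells replicate 1 or 2, the KO against WT count was 259 or 257. With DESeq2 these 4 counts were 1553, 1463, 244 and 899. Library totals gave 394 for KO against WT. KO1 against KO2 gave 128 genes without the low-count filter and 29 with the length-scaled table. The causes were not tested.

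Summing libraries per line left 10013 and 5875 calls between tumours and cells. The replicate block gave 10770 and 6755 calls, 521 among lines, 748 for KO3, 25 for KO1 against KO2 and 565 for KO against WT. Same-numbered libraries did not deviate together (correlations -0.301 to 0.0656). With only 2 cell libraries per line, whose deviations mirror each other, this cannot settle whether the numbers pair libraries. Of 203 named results, none that had passed changed direction under RLE, library totals, TMM over culture-expressed genes or DESeq2. Nor did any that had passed among those recomputed with sums per line, of which 163 kept their call and 4 lost it. Changes of sign in results that had not passed were not tallied. Dnajb9 (0.84), Efna1 (-0.41), Anpep (0.26) and Snhg5 (-0.76) no longer passed with sums per line, and Efna1 (-0.31) with TMM over culture-expressed genes. Library totals gave 2543 rises and 4521 falls among culture-expressed genes, TMM over these genes 3479 and 3495.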

Other observations

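Outside the culture-expressed genes, 467 genes had 0 counts in all 6 KO cell libraries and at least 1 CPM in all 9 KO tumours. The most abundant were Col3a1 and Col5a2, fibrillar collagen chains, at 221 to 1206 CPM and 91.2 to 208 CPM, and C1qa, a complement subunit made by macrophages, at 102 to 218 CPM. Thbs1, a matricellular protein, reached 71.3 to 188 CPM. Otof, known for synaptic release in hair cells, and Abo, a glycosyltransferase of blood group antigens, are not usual markers of the host cell types listed, and they reached 90.7 to 164 CPM and 72.0 to 107.5 CPM. Nr3c1, the glucocorticoid receptor, was at 0 in all KO cells and had a tumour median of 11.2 CPM.

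The other marker lists were as follows. Pericyte and smooth muscle markers summed to 6.35 to 12.9 CPM in cells and 117 to 248 CPM in tumours. Adipocyte markers summed to 48.9 to 56.8 CPM in cells and 99.1 to 1038 CPM in tumours, erythroid markers to 44.3 to 162 CPM and 80.8 to 259 CPM, and Schwann cell markers to 56.3 to 74.2 CPM and 39.4 to 66.2 CPM. Skin keratinocyte markers were higher in cells, 25.8 to 39.6 CPM against 4.75 to 12.4 CPM.

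Further motif cores were searched in the RefSeq promoters on both strands. ACGTG, the hypoxia response core, was in 15 of 28 hypoxia and glycolysis genes (53.6%) and in 19.7% of all promoters. TTCCCGCC, an E2F core, was in 7 of 28 replication genes (25%) and 2.24% of all, the E-box CACGTG in 4 of 13 clock genes (30.8%) and 7.24%, and TCACNCCAC, a sterol element core, in 1 of 16 cholesterol genes (6.25%) and 1.22%. These are matches of letters and were not tested.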
